A study of Mus musculus with 62 samples.

Results

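The change in the cachectic effect between 8 and 6 weeks was measured in soleus muscle, a calf muscle made largely of slow fibres, as a difference of differences. The log2 difference between CAC and Con animals at 6 weeks was subtracted from the same difference at 8 weeks, for every gene. CAC animals had received melanoma cells that cause cachexia, the loss of muscle and fat that accompanies some tumours, and Con animals had received a mock injection. The members were 22 of the 62 libraries of the series: 7 CAC and 5 Con libraries from 8 weeks after the injection, and 5 CAC and 5 Con libraries from 6 weeks after it. The 20 libraries of animals given melanoma cells that do not cause cachexia were not used. All animals were female and labelled as 2 months old, and the labels disagree on their strain, which the sample entries give as C57BL6/J and the design text as athymic nude. The extraction text also speaks of an injection of LLC cells, a mouse lung carcinoma line, where the treatment labels name melanoma cells. The labels name no transgene, and 1 melanoma cell population stands for the disease. They call the libraries biological replicates.

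Muscle in cachexia receives signals from the tumour and from the host. Cytokines of the interleukin 6 family activate STAT3, which switches on genes of the acute phase response, and glucocorticoids act with FoxO factors on genes of protein breakdown. Muscle also holds cells between its fibres, among them macrophages, mast cells, fat cells, and fibroblasts that lay down the matrix. In whole muscle, fewer cells of a type and less RNA per cell cannot be told apart.

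Values were transcript abundances (TPM), which scale every library to one total and are per transcript length. Each effect is a difference on the log2(TPM + 1) scale. The added 1 understates the difference between groups for low genes and can make the difference of differences too small or too large, so values at an added 0.1 are given where they differ by over 1.5 times. The read depth of a library is unknown, because TPM does not keep it. Of 47643 genes, 13162 reached 1 TPM in at least 5 of the 22 libraries and were tested with limma, with p-values adjusted by the Benjamini-Hochberg method over all of them. A gene was called at an adjusted p under 0.05. The 2 weeks differed in every arm: all libraries of week 8 had a negative score on the first principal component, which held 54.4% of the variance, and all libraries of week 6 a positive one. Mitochondrial transcripts took 27.6 ± 2.9% of the TPM in CAC and 28.7 ± 5.97% in Con at 8 weeks, and 33.1 ± 5.23% in CAC and 39.8 ± 1.02% in Con at 6 weeks (SD, n = 7, 5, 5 and 5). Soleus genes were high throughout, the summed level of the 20 slow fibre genes having a median of 34174 TPM in CAC and 51964 TPM in Con at 8 weeks, and 61683 TPM in CAC and 65818 TPM in Con at 6 weeks. Of 8 melanocyte markers 1, Mitf, was high enough to be tested, and 4 were under 1 TPM in every one of the 22 libraries. The 8 together had a median of 14.6 TPM in CAC and 7.47 TPM in Con at 8 weeks. At 6 weeks these medians were 7.64 TPM in CAC and 6.90 TPM in Con. Mitf alone was 7 to 15.7 TPM in CAC and 5.57 to 7.77 TPM in Con at 8 weeks.

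The promoters of 4 genes are printed because 3 of the called genes take part in Wnt signalling and the fourth, Aif1l, held a match to a Wnt response motif. They were picked after the calls were seen, and the share of all tested genes that belong to Wnt signalling was not counted. In this pathway secreted Wnt proteins act on neighbouring cells through Dishevelled and beta-catenin. Each is the 250 bases before the gene's RefSeq start site (GRCm38.p6), on the gene's own strand. RefSeq and GENCODE place some starts differently, so the windows of Dact2 and Aif1l overlap the GENCODE gene.
Dact2, chr17:14203832-14204081, minus strand: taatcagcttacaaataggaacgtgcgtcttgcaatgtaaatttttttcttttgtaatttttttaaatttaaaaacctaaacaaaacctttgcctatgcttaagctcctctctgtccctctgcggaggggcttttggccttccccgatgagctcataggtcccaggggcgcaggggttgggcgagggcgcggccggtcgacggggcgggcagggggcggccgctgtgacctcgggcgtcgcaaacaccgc
Dact1, chr12:71309634-71309883, plus strand: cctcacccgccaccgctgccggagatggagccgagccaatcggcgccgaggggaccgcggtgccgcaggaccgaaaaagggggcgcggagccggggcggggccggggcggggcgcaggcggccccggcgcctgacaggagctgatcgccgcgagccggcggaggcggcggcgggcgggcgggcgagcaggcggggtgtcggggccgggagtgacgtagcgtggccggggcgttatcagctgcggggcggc
Wnt10b, chr15:98778151-98778400, minus strand: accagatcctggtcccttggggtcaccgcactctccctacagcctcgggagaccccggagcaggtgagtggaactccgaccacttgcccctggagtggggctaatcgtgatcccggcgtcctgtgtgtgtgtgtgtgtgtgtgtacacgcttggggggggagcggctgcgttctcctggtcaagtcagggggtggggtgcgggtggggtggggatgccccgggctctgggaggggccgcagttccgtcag
Aif1l, chr2:31950053-31950302, plus strand: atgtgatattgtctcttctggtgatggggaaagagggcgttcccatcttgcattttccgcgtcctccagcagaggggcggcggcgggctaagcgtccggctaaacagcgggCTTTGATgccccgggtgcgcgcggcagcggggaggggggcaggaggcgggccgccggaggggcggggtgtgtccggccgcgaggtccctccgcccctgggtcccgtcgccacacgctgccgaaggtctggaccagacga
The capitals in the Aif1l promoter mark the only match among the 4 to any of 4 motifs searched on both strands. This match is to the TCF/LEF motif CTTTGAT, 139 bases before the RefSeq start. It lies past the GENCODE start of Aif1l, so by GENCODE it is inside the gene. The other motifs were TTCNNNGAA for STAT factors, AGAACA for the glucocorticoid receptor and TGANTCA for AP-1. Of the 25 genes called for a changed effect, 19 had a RefSeq window, and 14 of these windows held none of the motifs. The STAT motif stood in 1 of the 19 (Gsta1), the TCF/LEF motif in 1 (Aif1l), the glucocorticoid receptor motif in 2 (Hepacam2 and Dmp1) and AP-1 in 1 (Efcc1). Over all 27025 promoters the shares were 7.18% for STAT, 3.23% for TCF/LEF, 16.2% for the glucocorticoid receptor and 6.87% for AP-1, and over the promoters of the 9859 tested genes with a window they were 6.07%, 2.26%, 10.8% and 4.39% in the same order.

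The cachectic effect differed between the weeks in 25 genes (0.19% of the 13162 tested): it was higher at 8 weeks in 2 (0.0152%), Fam102a and Tmed5, and lower at 8 weeks in 23 (0.175%). At an unadjusted p under 0.05 there were 171 genes higher (1.3%) and 1645 lower (12.5%). The median gene had a change of -0.15, and 76.2% of the genes had a negative change. Rescaling the libraries by the median of gene ratios brought this median to 0, and then 19 genes were called higher and 23 lower, among them 21 of the 25. The median standard error of a gene was 0.20 on the log2 scale.

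The calls lay close to the threshold, with adjusted p-values from limma between 0.0208 and 0.0441. Their number moved whichever library was left out. All 25 genes kept their direction without any one of the 22 libraries, but the number called ran between 0 and 166. It was 0 without CAC replicate 2, 3 or 4 or Con replicate 2, 3 or 4 of week 6. It was 1 without CAC replicate 1, 3 without CAC replicate 5, 4 without Con replicate 1 and 1 without Con replicate 5 of that week. Of week 8, leaving out CAC replicates 1 to 7 in turn gave 7, 4, 103, 166, 6, 11 and 6 calls, and leaving out Con replicates 1 to 5 gave 43, 10, 38, 140 and 15. A pseudocount of 0.1 in place of 1 left 0 genes called by limma, with all 25 still at an unadjusted p under 0.05 and the smallest adjusted p among them at 0.0568. Both 6-week means were under 1 TPM in 8 of the 25 genes and under 2.5 TPM in 16. Each gene lost its call under 8 (Hepacam2) to 21 of 29 alternatives. Of these, leaving out libraries with at least 500 TPM of Myh4 was the same run as leaving out CAC replicate 6 of week 8.

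**Figure D1:**
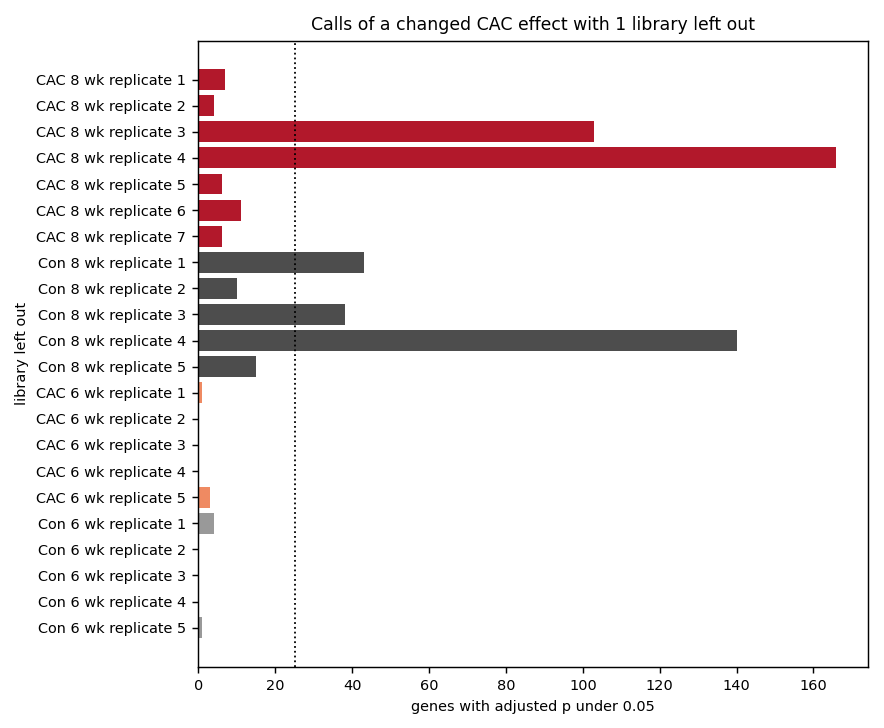
Number of genes called for a changed cachectic effect (x axis) when 1 library was left out, 1 bar per library, coloured by group; the dotted line marks the 25 calls with all 22 libraries. The count was highest, at 166, without CAC replicate 4 of week 8, and 0 without any of 6 libraries of week 6.

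The genes called lower shared a pattern in the levels behind the change. Con libraries stood higher at 8 than at 6 weeks in 22 of the 23 (called in all 22), and in all 22 every Con library of week 8 lay above every Con library of week 6. This held for 44.9% of all tested genes, and 47.6% of all genes were called higher in Con at 8 than at 6 weeks (5.48% lower, 53.1% in either direction). CAC against Con was called lower at 8 weeks in 19 of the 23, against 5.78% of all genes (6.52% higher). All 7 CAC libraries lay below all 5 Con libraries at 8 weeks in 19, against 2.9% of all genes (4.06% had all 7 above). At 6 weeks CAC against Con was called higher in 4 (Lgi4, Farp1, Plekho1 and Dmp1), against 22.5% of all genes. It was called lower in 4 (Dact2, Cd83, Pthlh and the predicted gene D630033O11Rik), against 3.87% of all genes. CAC animals were called higher at 8 than at 6 weeks in 15 of the 23 (38.5% of all genes) and lower in 1, Dmp1 (10.3% of all genes, 48.8% being called in either direction). These counts come from the libraries by which the genes were called, so they describe the calls and are no support for them.

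Among the called genes, the widest shift was that of Dact2 (chr17:14195052-14204304, minus strand, mm10), whose protein binds Dishevelled and tunes Wnt and TGF-beta signalling. At 8 weeks its level had a lowest value of 1.77, a median of 3.47 and a highest of 6.33 TPM in CAC, and was 17.4, 43.2, 22.3, 20.9 and 17.6 TPM in Con. In the 6-week libraries it was 0.26, 0.788, 0.523, 0.481 and 0.755 TPM in CAC and 1.34, 1.37, 2.07, 1.46 and 1.28 TPM in Con. CAC libraries were lower than every Con library at both weeks, with a wider gap on the log2(TPM + 1) scale at 8 weeks. The effect was -2.45 at 8 weeks (adjusted p = 0.000741) and -0.68 at 6 weeks (adjusted p = 0.00171), a change of -1.77 (SE 0.32, adjusted p = 0.0331). With a pseudocount of 0.1 the change was -1.42 (adjusted p = 0.145).

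Dact1 (chr12:71309884-71320107, plus strand), its paralogue, was 4.69 to 9.91 TPM with a median of 7.75 in CAC, and 13.8, 27.2, 12.7, 14.8 and 15.8 TPM in Con at 8 weeks. Its 6-week level was 3.13 to 3.91 TPM in CAC and 2.58 to 3.42 TPM in Con. The groups overlapped at 6 weeks and did not at 8 weeks. Its effect changed by -1.24 (SE 0.25, adjusted p = 0.0406), with -1.09 at 8 weeks (adjusted p = 0.00689) and 0.15 at 6 weeks (adjusted p = 0.201).

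Wnt10b (chr15:98770712-98778150, minus strand), a secreted Wnt protein known to hold back the formation of fat cells, was 0.661 to 3.33 TPM with a median of 2.09 in CAC, and 7.72, 19.6, 8.62, 7.3 and 6.84 TPM in Con at 8 weeks. Week 6 gave 0.0723 to 0.509 TPM in CAC and 0.417 to 0.527 TPM in Con. The gene was under 1 TPM in every library of week 6, where the groups overlapped, and the groups did not overlap at 8 weeks. The change was -1.64 (SE 0.34, adjusted p = 0.041) and had an adjusted p of 0.195 at a pseudocount of 0.1.

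**Figure D2:**
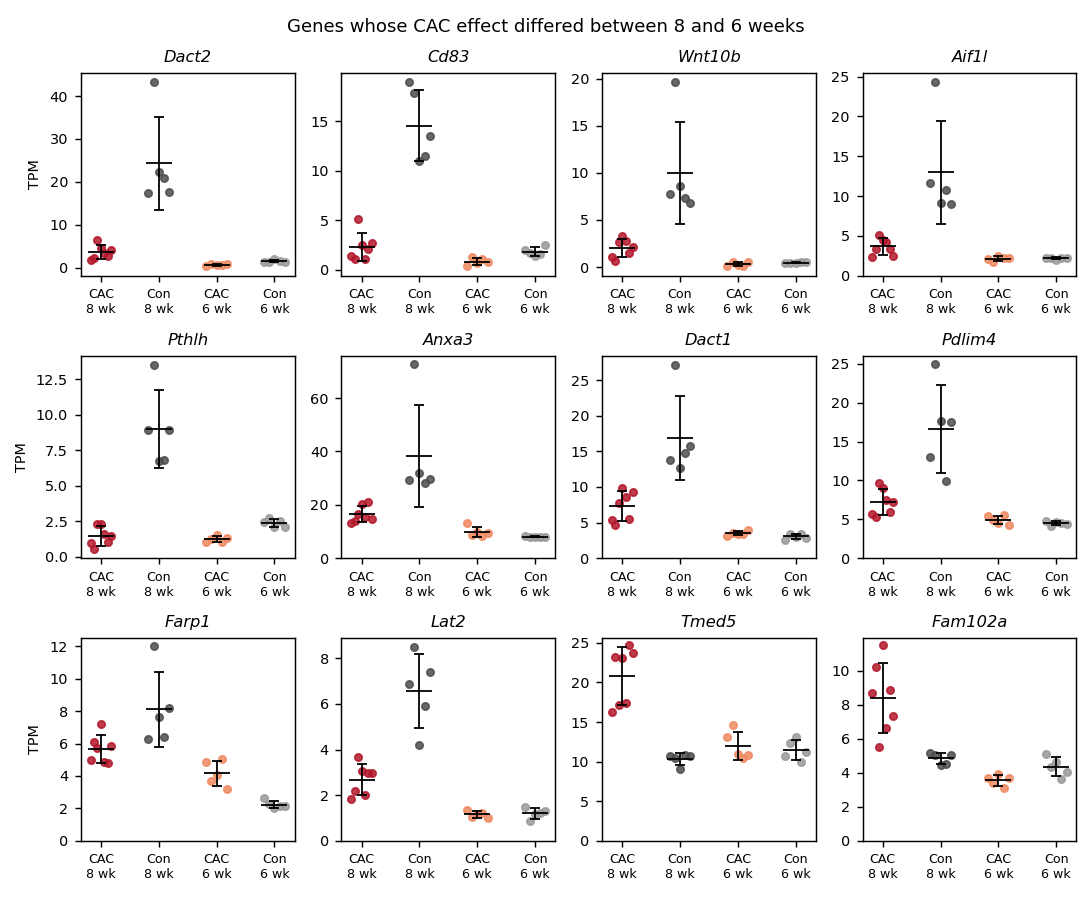
TPM (y axis, linear, its own scale in each panel) of 12 genes called for a changed cachectic effect; points are libraries and bars the mean ± SD of CAC (n = 7) and Con (n = 5) at 8 weeks and CAC and Con (n = 5 each) at 6 weeks. In the genes from Dact2 to Lat2 the Con libraries of week 8 stand highest on average, while in Tmed5 and Fam102a all 7 CAC libraries of week 8 lie above all 5 Con libraries of that week.

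Pthlh (chr6:147252101-147264183, minus strand), the parathyroid hormone-related protein that some tumours secrete and that drives wasting of fat in mouse tumour models, was 0.54 to 2.32 TPM with a median of 1.47 in CAC, and 8.92, 13.5, 6.76, 6.81 and 8.92 TPM in Con at 8 weeks. At 6 weeks it was 1.01, 1.27, 1.51, 1.04 and 1.31 TPM in CAC and 2.41, 2.71, 2.12, 2.53 and 2.06 TPM in Con. CAC libraries lay below all Con libraries at both weeks, which at 6 weeks held for 2.25% of all genes. The CAC level did not pass the test between 8 and 6 weeks (0.10, adjusted p = 0.671), whereas Con was higher at 8 weeks by 1.53 (adjusted p = 5.88e-07). The effect changed by -1.44 (SE 0.25, adjusted p = 0.0331).

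Among genes of immune cells, Cd83 (chr13:43784775-43803132, plus strand), a surface protein of mature dendritic cells and activated lymphocytes, was 1.06 to 5.09 TPM with a median of 2.04 in CAC, and 18.9, 17.8, 11, 11.5 and 13.5 TPM in Con at 8 weeks. In the 6-week libraries it was 0.315 to 1.31 TPM in CAC and 1.36 to 2.44 TPM in Con. The effect was -2.32 at 8 weeks (adjusted p = 0.000741) and -0.65 at 6 weeks (adjusted p = 0.00981), a change of -1.66 (SE 0.32, adjusted p = 0.0406). Lat2 (chr5:134600022-134615025, minus strand), a signalling adaptor of mast cells and B cells, averaged 2.67 ± 0.671 TPM in CAC and 6.57 ± 1.64 TPM in Con at 8 weeks, and 1.15 ± 0.151 TPM in CAC and 1.2 ± 0.232 TPM in Con at 6 weeks (SD, n = 7, 5, 5 and 5). Its groups overlapped at 6 weeks only, and its effect changed by -1.01 (SE 0.20, adjusted p = 0.0406). Ms4a2 (chr19:11615523-11623719, minus strand), the beta chain of the IgE receptor of mast cells, was low: 0.442 to 1.42 TPM in CAC and 2 to 2.68 TPM in Con at 8 weeks, and 0.2 to 0.29 TPM in CAC and 0.104 to 0.433 TPM in Con at 6 weeks. Its change of -0.78 (SE 0.16, adjusted p = 0.0441) came with an effect of 0.00 at 6 weeks, and was -1.34 at a pseudocount of 0.1.

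Genes of the cytoskeleton and of membranes followed. Aif1l (chr2:31950139-31973442, plus strand), an actin-binding protein, was 2.39 to 5.16 TPM with a median of 3.38 in CAC, and 11.6, 24.3, 9.16, 10.7 and 9.03 TPM in Con at 8 weeks. Its 6-week level was 1.77 to 2.48 TPM in CAC and 2 to 2.27 TPM in Con, and the groups overlapped. The effect changed by -1.498 (SE 0.27, adjusted p = 0.0331). Anxa3 (chr5:96793339-96845966, plus strand), an annexin that binds phospholipids when calcium is present, was 13.1 to 20.9 TPM in CAC and 28 to 72.6 TPM in Con at 8 weeks, and 8.4 to 13.1 TPM in CAC and 7.83 to 8.29 TPM in Con at 6 weeks. All 5 CAC libraries of week 6 lay above all 5 Con libraries (as in 13.6% of all genes), and at 8 weeks all 7 lay below. The effect changed by -1.35 (SE 0.26, adjusted p = 0.0406), with 0.26 at 6 weeks (adjusted p = 0.0853). Pdlim4 (chr11:54054928-54069014, minus strand), an actin-associated PDZ and LIM domain protein, had a change of -1.17 (SE 0.24), and Ahnak2 (chr12:112772194-112802657, minus strand), a large scaffold protein, of -1.21 (SE 0.24), each with an adjusted p of 0.0406.

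In Lgi4 and Farp1 the effect was called higher at 6 weeks and did not pass the test at 8 weeks. Lgi4 (chr7:31059342-31070935, plus strand), a secreted protein that Schwann cells need for myelination, was 3.82 to 7.95 TPM with a median of 5.7 in CAC, and 6.95, 10.5, 9.16, 6.14 and 8.86 TPM in Con at 8 weeks. Week 6 gave 5.88, 5.73, 5.5, 6.99 and 5.51 TPM in CAC and 3.15, 3.03, 3.44, 4.05 and 3.02 TPM in Con. The groups did not overlap at 6 weeks and overlapped at 8 weeks. The effect was -0.44 at 8 weeks (adjusted p = 0.0972) and 0.68 at 6 weeks (adjusted p = 0.000571), a change of -1.11 (SE 0.20, adjusted p = 0.0331). Farp1 (chr14:121035200-121283744, plus strand) averaged 5.65 ± 0.855 TPM in CAC and 8.11 ± 2.33 TPM in Con at 8 weeks, and 4.17 ± 0.783 TPM in CAC and 2.23 ± 0.24 TPM in Con at 6 weeks (SD, n = 7, 5, 5 and 5). Its change was -1.10 (SE 0.19, adjusted p = 0.0331), and it was called in 19 of 29 alternatives.

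Tmed5 (chr5:108106366-108132620, minus strand), a cargo receptor of the early secretory pathway, and Fam102a (chr2:32535332-32569756, plus strand) were the genes with a higher effect at 8 weeks. Tmed5 was 16.3 to 24.8 TPM with a median of 23.1 in CAC, and 10.7, 10.5, 9.06, 10.8 and 10.7 TPM in Con at 8 weeks. At 6 weeks it was 13.1, 14.6, 10.9, 10.5 and 10.8 TPM in CAC and 10.7, 12.4, 13.1, 10 and 11.2 TPM in Con. The CAC libraries stood above the Con libraries at 8 weeks and among them at 6 weeks, and the change was 0.88 (SE 0.17, adjusted p = 0.0406). Fam102a was 5.53 to 11.5 TPM in CAC and 4.44 to 5.19 TPM in Con at 8 weeks, and 3.11 to 3.93 TPM in CAC and 3.65 to 5.13 TPM in Con at 6 weeks. Its effect was 0.66 at 8 weeks (adjusted p = 0.014) and -0.23 at 6 weeks (adjusted p = 0.0925), a change of 0.88 (SE 0.18, adjusted p = 0.0441).

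Of the remaining called genes, Plekho1 was the 1 with a group mean of at least 5 TPM that was neither ranked nor predicted (change -0.86, SE 0.17), and 9, Ms4a2 among them, had no group mean of 5 TPM. The smallest adjusted p of all, 0.0208, belonged to Hepacam2, an adhesion protein of the immunoglobulin family at 0.281 to 0.676 TPM in CAC and 1.27 to 2.09 TPM in Con at 8 weeks, and 0.0439 to 0.191 TPM in CAC and 0.133 to 0.24 TPM in Con at 6 weeks. It is thus a low gene in every group. Like Gsta1, it reached 1 TPM in the 5 Con libraries of week 8 alone. Both genes therefore passed the filter only through the group where they were highest. Dmp1, a matrix protein known from osteocytes, ran differently from the others: 0.242 to 0.629 TPM in CAC and 0.253 to 0.779 TPM in Con at 8 weeks, and 1.57 to 2.97 TPM in CAC and 0.401 to 1.06 TPM in Con at 6 weeks. The other low genes were Prr32, Gsta1 (a glutathione transferase), Fam159b, Efcc1, Arhgap22 and Trpv2 (a cation channel), with changes between -1.72 and -0.73. At a pseudocount of 0.1, where none of them was called, the change was -3.03 for Gsta1, -2.90 for Prr32, -2.30 for Fam159b, -1.52 for Hepacam2, -1.49 for Dmp1, -1.37 for Efcc1 and -1.13 for Trpv2. The predicted gene D630033O11Rik had a change of -1.42, and of -0.90 at that pseudocount.

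The effect was also followed over gene lists, and their counts are read against all tested genes. CAC against Con was called higher at 8 weeks in 858 genes (6.52%) and lower in 761 (5.78%, 12.3% in either direction), with a median effect of 0.01, and at 6 weeks higher in 2963 (22.5%) and lower in 509 (3.87%, 26.4% in either direction), with a median of 0.16. The 6-week split depended on scaling, since rescaling gave 1385 higher and 1367 lower. Called higher at both weeks were 552 genes, 64.3% of those of week 8 and 18.6% of those of week 6, and called lower at both were 211, 27.7% and 41.5% of the same lists. Genes called higher at 8 and lower at 6 weeks numbered 0, and 5 were called lower at 8 and higher at 6 weeks; limma called the change in 0 of those 5. The genes called higher at 6 weeks had a median effect of 0.25 at 8 weeks and 0.43 at 6 weeks, and the genes called lower at 8 weeks a median of -0.76 at 8 weeks and -0.19 at 6 weeks, each being chosen by its own week. The counts moved with single libraries. The 858 were 537 without CAC replicate 2 and 514, 557, 452, 489 and 554 without Con replicates 1 to 5, and the 761 were 499 without CAC replicate 2 and 426, 478 and 463 without Con replicates 2, 3 and 5. At 6 weeks the 2963 were 1648, 1726 and 5068 without CAC replicates 1, 4 and 5 and 1739, 1801 and 1852 without Con replicates 2, 3 and 4, and the 509 were 322 without CAC replicate 1 and 331 without Con replicate 3.

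**Figure D3:**
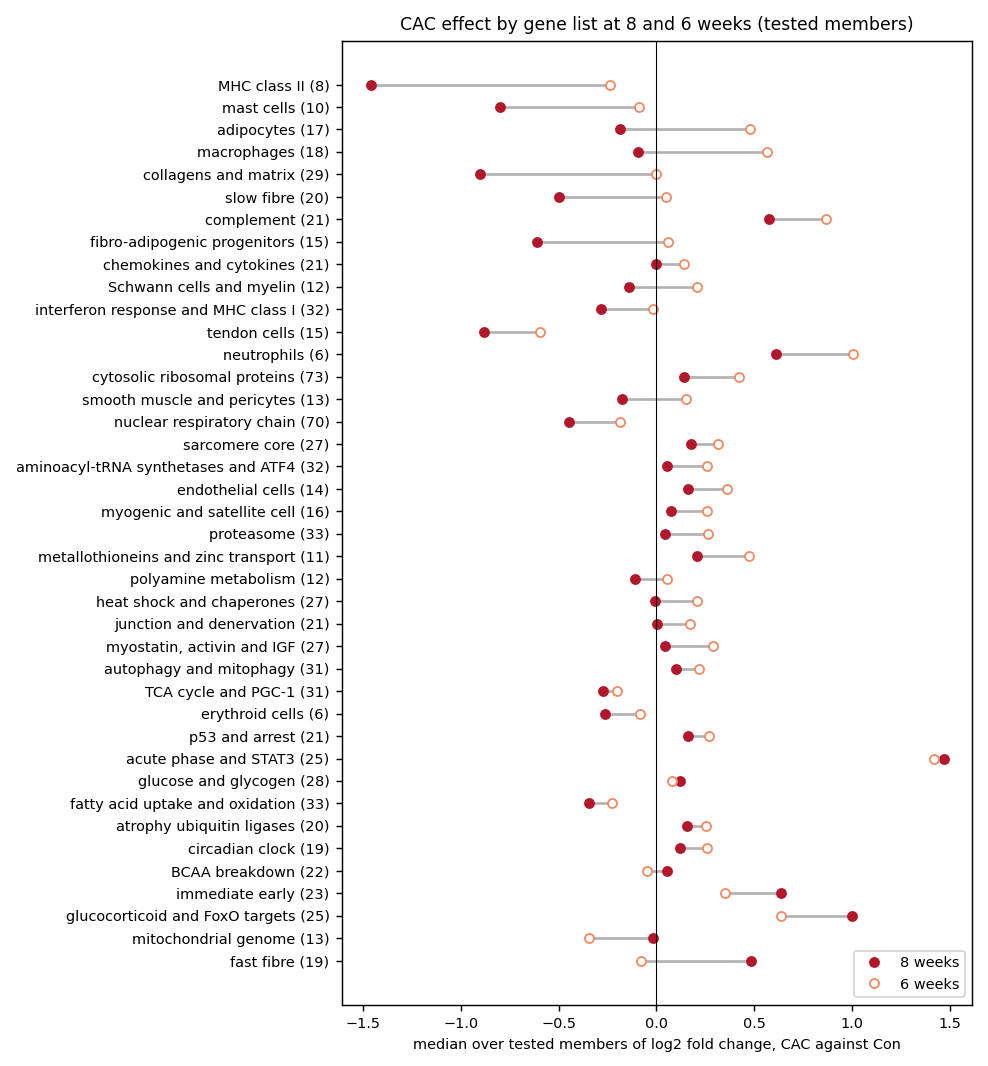
Median over tested members (their number in brackets) of the log2 CAC against Con difference at 8 weeks (filled) and 6 weeks (open), for lists with at least 5 tested members, ordered by the median change. MHC class II has the lowest median at 8 weeks, -1.46, and one of -0.24 at 6 weeks, acute phase genes have medians of 1.47 at 8 weeks and 1.42 at 6 weeks, and fast fibre genes have the most positive median change, 0.41.

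Mast cells are tissue immune cells that carry proteases in granules. Of 10 tested mast cell genes, 7 were called lower at 8 weeks and 0 higher (median effect -0.80), against 1 lower and 1 higher at 6 weeks (median -0.09). The median change was -0.89, against -0.15 over all genes, and Ms4a2 was the member called. A lower effect at an unadjusted p under 0.05 was found in 8, against 12.5% of all genes. Mcpt4, a chymase of their granules, had a lowest value of 19.2, a median of 35 and a highest of 55.1 TPM in CAC, and 133, 266, 198, 121 and 146 TPM in Con at 8 weeks. In the 6-week libraries it was 3.01, 7.09, 5.38, 3.69 and 6.82 TPM in CAC and 6.32, 18.2, 12.3, 9.39 and 9.42 TPM in Con. The CAC libraries lay below all Con libraries at 8 weeks, and the groups overlapped at 6 weeks. Its effect was called lower at both weeks, -2.20 at 8 weeks (adjusted p = 0.00134) and -0.95 at 6 weeks (adjusted p = 0.0187), and the change of -1.26 (SE 0.42) did not pass (adjusted p = 0.181). Kit, the receptor on which mast cells depend, was 1.02 to 2.59 TPM in CAC and 3.44 to 4.43 TPM in Con at 8 weeks, and 0.528 to 0.895 TPM in CAC and 0.68 to 1.47 TPM in Con at 6 weeks. Cpa3, their carboxypeptidase, had a change of -1.15 (adjusted p = 0.126), and Mrgprb1, a receptor on mast cells of connective tissue, of -0.72 (adjusted p = 0.0849, and -1.13 at a pseudocount of 0.1). The summed level of the list was 97.8 to 238 TPM in CAC and 360 to 752 TPM in Con at 8 weeks, and 27.2 to 41 TPM in CAC and 31.4 to 62.2 TPM in Con at 6 weeks. The 7 calls at 8 weeks were 7 without any single library of that week.

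MHC class II molecules present peptides to helper T cells. Of 8 tested genes of this pathway, 7 were called lower at 8 weeks (median -1.46), against 0 lower and 1 higher at 6 weeks (Ctss; median -0.24). All 8 had a negative change (median -1.08), against 76.2% of all genes. Of the 8, 3 had an unadjusted p under 0.05, against 12.5% of all genes lower at that limit, and limma called 0. H2-DMb1, a subunit that helps load the peptide, was 2.6 to 5.47 TPM with a median of 3.56 in CAC, and 35.3, 10.2, 6.56, 9.32 and 14.1 TPM in Con at 8 weeks. Its 6-week level was 0.366 to 0.896 TPM in CAC and 0.459 to 1.45 TPM in Con. Its change was -1.37 (SE 0.38, adjusted p = 0.101), and those of H2-DMb2 and H2-DMa were -1.24 (adjusted p = 0.142) and -1.12 (adjusted p = 0.178). H2-Ab1, a chain of the presenting molecule itself, was 22.2 to 95.3 TPM in CAC, and 311, 88.3, 56.9, 64.3 and 110 TPM in Con at 8 weeks, where CAC replicate 3 was the highest CAC library. The 8-week calls fell to 3 without CAC replicate 1, 2, 4, 5 or 6 or Con replicate 1, to 4 without CAC replicate 7 and to 2 without Con replicate 2 or 5.

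**Figure D4:**
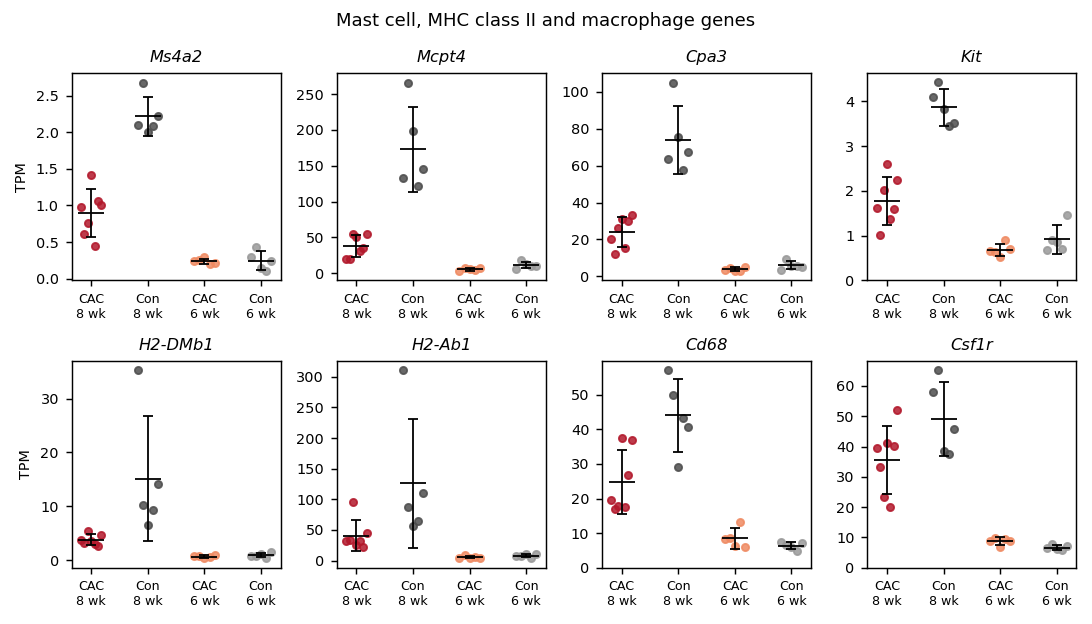
TPM (y axis, linear, its own scale in each panel) of mast cell genes (Ms4a2, Mcpt4, Cpa3, Kit), MHC class II genes (H2-DMb1, H2-Ab1) and macrophage genes (Cd68, Csf1r); points are libraries and bars the mean ± SD of CAC (n = 7) and Con (n = 5) at 8 weeks and CAC and Con (n = 5 each) at 6 weeks. For the mast cell genes the Con libraries of week 8 lie above all CAC libraries of that week, while Csf1r overlaps between CAC and Con at 8 weeks.

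Macrophage genes had another pattern. Of 18 tested, 1 was called lower and 0 higher at 8 weeks (median effect -0.10), against 12 higher and 0 lower at 6 weeks (median 0.57). All 18 had a negative change (median -0.71), against 76.2% of all genes. Of the 18, 10 had an unadjusted p under 0.05, against 12.5% of all genes lower at that limit, and none was called by limma. Cd68, a lysosomal protein of macrophages, was 16.9 to 37.6 TPM with a median of 19.7 in CAC, and 57.3, 49.9, 29.1, 43.2 and 40.8 TPM in Con at 8 weeks. Week 6 gave 8.37, 8.63, 6.14, 13.2 and 5.96 TPM in CAC and 7.34, 6.66, 5.98, 4.84 and 7.26 TPM in Con. The groups overlapped at both weeks, and the change was -1.16 (SE 0.32, adjusted p = 0.1). C1qa, a complement component made by macrophages, averaged 297 ± 107 TPM in CAC and 258 ± 81 TPM in Con at 8 weeks, and 45.9 ± 5.83 TPM in CAC and 24.9 ± 4 TPM in Con at 6 weeks (SD, n = 7, 5, 5 and 5). The summed level of the list had medians of 1801 TPM in CAC and 1904 TPM in Con at 8 weeks, and 273 TPM in CAC and 173 TPM in Con at 6 weeks. Of 21 complement genes, some of them also in the macrophage list, 6 were called higher at 8 weeks and 16 at 6 weeks, and 0 lower at either. The change of Cfb, factor B of the alternative pathway, was -0.84 (adjusted p = 0.213), and that of C6, a member of the membrane attack complex, was 1.17 (adjusted p = 0.239). At a pseudocount of 0.1 the change of C6 was 0.39 (adjusted p = 0.817).

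Matrix genes were called in both directions within each week, while 25 of 29 had a negative change, against 76.2% of all genes. Of 29 genes for collagens and other matrix proteins, 10 were called lower and 2 higher at 8 weeks (median -0.90), against 8 lower and 11 higher at 6 weeks (median 0.00). The median change was -0.58, and limma called 0. At an unadjusted p under 0.05, 12 genes were lower and 0 higher, against 12.5% and 1.3% of all genes. Eln, which encodes elastin, was 9.36 to 32.4 TPM with a median of 26.4 in CAC, and 44.1, 123, 49.1, 24.8 and 28.4 TPM in Con at 8 weeks. At 6 weeks it was 31.6, 23.3, 27.5, 21.8 and 20.9 TPM in CAC and 12.4, 14.4, 13.3, 14.2 and 10.4 TPM in Con. CAC lay above Con throughout at 6 weeks and overlapped with it at 8 weeks, and the change was -1.81 (SE 0.44, adjusted p = 0.0753). Fbn1, the fibrillin of microfibrils, averaged 29.6 ± 8.44 TPM in CAC and 129 ± 87.6 TPM in Con at 8 weeks, and 7.35 ± 1.17 TPM in CAC and 11.1 ± 2.32 TPM in Con at 6 weeks (SD, n = 7, 5, 5 and 5). Its effect was called lower at both weeks, and its change of -1.42 (SE 0.37) had an adjusted p of 0.0858. Col1a1, the main fibrillar collagen, had effects of -1.42 at 8 weeks (adjusted p = 0.0623) and -1.53 at 6 weeks (adjusted p = 0.00981), and a change of 0.11 with a 95% interval between -1.23 and 1.45. The 11 higher calls at 6 weeks were 7 without Con replicate 1 or 5, and the 8 lower calls were 5 without CAC replicate 1 and 4 without Con replicate 2, 3 or 4.

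Of 15 tendon cell genes, 9 were called lower and 1 higher at 8 weeks (median -0.88), and 8 lower and 1 higher at 6 weeks (median -0.60). Kera, keratocan of tendon and cornea, was 0.0652 to 8.31 TPM in CAC and 10.5 to 56.3 TPM in Con at 8 weeks, and 1.21 to 9.25 TPM in CAC and 12.6 to 33.8 TPM in Con at 6 weeks. Its effect was called at both weeks, and the change was -0.33 (SE 0.72), or -0.77 at a pseudocount of 0.1. Scx, scleraxis, the transcription factor of tendon cells, was 15.2 to 22.3 TPM in CAC and 24 to 53.9 TPM in Con at 8 weeks, and 16.9 to 39.4 TPM in CAC and 12.9 to 24.9 TPM in Con at 6 weeks, a change of -1.18 (SE 0.29, adjusted p = 0.0761). The groups of Scx did not overlap at 8 weeks and did at 6 weeks.

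Fat cell genes gave 0 calls by limma at 8 weeks and 11 higher calls of 17 at 6 weeks. Adipoq, the hormone adiponectin, was 118 to 1300 TPM with a median of 450 in CAC, and 131, 909, 508, 563 and 733 TPM in Con at 8 weeks. In the 6-week libraries it was 75.1, 90.8, 88.7, 139 and 61.8 TPM in CAC and 49.1, 35.2, 34, 41.3 and 49.1 TPM in Con. The spread within each group at 8 weeks was wider than the difference between groups. The change of -1.18 (SE 0.69) did not pass, with an interval between -2.61 and 0.26. The 11 calls at 6 weeks were 7 without CAC replicate 4 or Con replicate 1, 3 or 4, and 6 higher and 1 lower after rescaling.

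Acute phase genes were high in CAC at both weeks. Of 25 tested, 18 were called higher at 8 weeks (median effect 1.47) and 20 at 6 weeks (median 1.42), 0 were called lower at either, and the median change was -0.03, against -0.15 over all genes. Serpina3n, a protease inhibitor of the acute phase, was 1110, 1310, 88.7, 1140, 642, 1420 and 943 TPM in CAC and 20.6 to 52 TPM in Con at 8 weeks, and 156 to 536 TPM in CAC and 5.88 to 14.4 TPM in Con at 6 weeks. CAC replicate 3 of week 8 was the lowest of its group for Serpina3n, and also for Socs3 (15.9 TPM, where the other 6 had 60.8 to 85.3 TPM), Mt2 and Fkbp5, yet for each of Serpina3n and Socs3 it lay above every Con library. The change of Serpina3n was -0.45 with an interval between -1.98 and 1.07, that of Socs3, the inhibitor that STAT3 induces, was -0.45 with an interval between -1.40 and 0.50 (-0.69 at a pseudocount of 0.1), and that of Stat3 was -0.31 with an interval between -0.65 and 0.03.
Saa3, an acute phase apolipoprotein, was 3.85 to 499 TPM with a median of 16.6 in CAC and 0.702 to 4.24 TPM in Con at 8 weeks, and 0.508 to 4.13 TPM in CAC and 0 to 0.982 TPM in Con at 6 weeks. Its change of 2.62 had an SE of 1.08 (adjusted p = 0.281), and was 1.55 at a pseudocount of 0.1 (adjusted p = 0.602). Il4ra, the receptor of interleukin 4, was 13.4 to 31.8 TPM in CAC and 7.41 to 58.3 TPM in Con at 8 weeks, and 9.14 to 18.1 TPM in CAC and 3.16 to 4.74 TPM in Con at 6 weeks, so that its groups were apart at 6 weeks only, with a change of -1.35 (SE 0.45, adjusted p = 0.179).

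**Figure D5:**
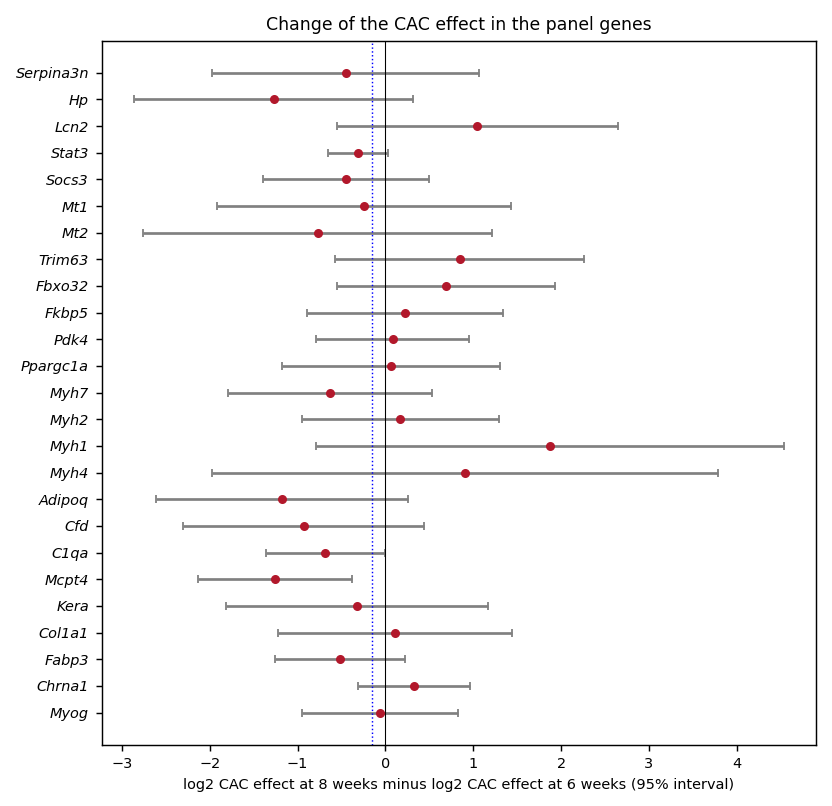
Change of the log2 cachectic effect, 8 minus 6 weeks (x axis; point, estimate; bar, 95% interval from limma), for a panel of 25 genes of cachexia and muscle; the dotted line is the median of all tested genes, -0.15. No panel gene was called, and the intervals of Mcpt4 and C1qa lie below 0.

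Of 25 glucocorticoid and FoxO targets, 12 were called higher at 8 weeks (median effect 1.00), and 16 higher and 1 lower at 6 weeks (median 0.64). The median change was 0.22, and limma called 0. At an unadjusted p under 0.05, 3 genes were higher, Tsc22d3, Sgk1 and Ddit4, against 1.3% of all genes. Sgk1, a kinase induced by glucocorticoids, was 25.7 to 117 TPM with a median of 65.1 in CAC, and 17.2, 9.3, 13.8, 16.5 and 21.2 TPM in Con at 8 weeks. Its 6-week level was 62.8, 50.9, 27.7, 40.5 and 49.6 TPM in CAC and 25.5, 23.2, 22.8, 31.9 and 28.7 TPM in Con. CAC lay above Con at 8 weeks throughout, and the groups overlapped at 6 weeks. Its change was 1.20 (SE 0.43, adjusted p = 0.211), that of Tsc22d3, the glucocorticoid-induced leucine zipper, was 1.05 (SE 0.37, adjusted p = 0.198), and that of Ddit4, an inhibitor of mTORC1, was 1.62 (SE 0.70, adjusted p = 0.297). Trim63, the ubiquitin ligase MuRF1, was 103 to 1060 TPM in CAC and 58.9 to 130 TPM in Con at 8 weeks, and 150 to 309 TPM in CAC and 112 to 175 TPM in Con at 6 weeks. Its effect was called at 6 weeks (1.57-fold, adjusted p = 0.0324) and not at 8 weeks (2.82-fold, adjusted p = 0.102), and the change was 0.85 on the log2 scale (SE 0.68, adjusted p = 0.597). Fbxo32, the ligase atrogin-1, was called at neither week.

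Nuclear genes of the respiratory chain were called lower in 33 of 70 at 8 weeks (median -0.45) and in 14 of 70 at 6 weeks (median -0.18), and 0 were called higher at either. Rescaling turned the order of the counts round, with 25 lower at 8 weeks and 42 at 6 weeks. The rescaled medians kept their order, with -0.46 at 8 weeks and -0.37 at 6 weeks. Ndufb2, a subunit of complex I, was 33.6 to 45.1 TPM in CAC and 55.8 to 72.5 TPM in Con at 8 weeks, and 29.7 to 39.7 TPM in CAC and 37.7 to 46.6 TPM in Con at 6 weeks, with a change of -0.37 (SE 0.14, adjusted p = 0.245). Of the 13 protein-coding genes of the mitochondrial genome, 12 had a positive change (median 0.30), where 76.2% of all genes had a negative one. None of the 13 was called by limma. In mt-Atp8, a subunit of ATP synthase, CAC had 14000 to 25200 TPM and Con 4710 to 13900 TPM at 8 weeks, and CAC 19500 to 32100 TPM and Con 23600 to 28900 TPM at 6 weeks. Its groups were apart at 8 weeks and overlapped at 6 weeks, and the change was 1.22 (SE 0.33, adjusted p = 0.0933). The lower calls of the nuclear list were 18 without CAC replicate 2, 19 without Con replicate 2, 15 without Con replicate 3 and 18 without Con replicate 5 of week 8, and ran between 3 (without Con replicate 3) and 25 (without CAC replicate 5) at 6 weeks.

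Of 20 slow fibre genes, 19 had a negative change (median -0.56, and -0.38 after rescaling), against 76.2% of all genes. Of 19 fast fibre genes, 17 had a positive change (median 0.41, and 0.58 after rescaling). In either list limma called 0. Myl2, the slow regulatory light chain, was 3100 to 6920 TPM in CAC and 6290 to 9330 TPM in Con at 8 weeks, and 5120 to 8260 TPM in CAC and 5630 to 8490 TPM in Con at 6 weeks, a change of -0.75 (SE 0.28, adjusted p = 0.22). Fabp3, the fatty acid binding protein of oxidative muscle, was 845 to 3240 TPM in CAC and 3880 to 5390 TPM in Con at 8 weeks, and 2110 to 3440 TPM in CAC and 5240 to 6520 TPM in Con at 6 weeks. CAC lay below Con at both weeks, and the change was -0.51 with an interval between -1.25 and 0.23. Myh1, the fast 2X myosin, ranged between 108 and 1670 TPM in CAC and between 19.5 and 1530 TPM in Con at 8 weeks, so that its change of 1.87 carried an SE of 1.29. Myh4, the fast 2B myosin, was 2040 TPM in CAC replicate 6 of week 8 and 5.52 to 23.6 TPM in the other CAC libraries of that week; its change was 0.90, and -0.16 without that library.

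Genes of the ribosome and the proteasome came next. Of 73 cytosolic ribosomal protein genes, 54 were called higher at 6 weeks (median effect 0.42) and 0 at 8 weeks by limma (median 0.14). A negative change was found in 71, against 76.2% of all genes, with a median of -0.27, and of -0.09 after rescaling. Of these genes 0 had an unadjusted p under 0.05, against 13.8% of all genes. Their 6-week count was 31 after rescaling, 34 without CAC replicate 1 and 35 without Con replicate 2. Of 33 proteasome genes, 1 was called higher at 8 weeks and 16 at 6 weeks, and 0 lower at either. The 6-week count was 1 after rescaling, 5 without CAC replicate 1, 2 or 4, 4 without Con replicate 2, 5 without Con replicate 3 or 5 and 7 without Con replicate 4. All 33 had a negative change (median -0.18), close to the median of all genes, and the median was 0.00 after rescaling. Psmd8, a subunit of the regulatory cap, was 66.6 to 95.5 TPM in CAC and 78.9 to 102 TPM in Con at 8 weeks, and 85.2 to 133 TPM in CAC and 62.7 to 81.1 TPM in Con at 6 weeks, with a change of -0.63 (SE 0.17, adjusted p = 0.0965). Among metabolic genes, Hk1, a hexokinase, had the smallest adjusted p outside the calls that any list held, 0.0631, with a change of -0.69 (SE 0.15), and Fbp2, the muscle fructose bisphosphatase, a change of 1.68 (SE 0.48, adjusted p = 0.116).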

How the data were processed

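RNA from soleus muscle was sequenced as stranded mRNA libraries (TruSeq kit, NovaSeq sequencer), per the labels' protocols. The authors deposited a table of TPM per gene, whose reads had been aligned to mm10 according to the submitters' processing notes. Which aligner and which quantification program they used is not given in the sources used here. Depth cannot be read from TPM, so no detection limit was computed. Groups were taken from the labels, and no 2 libraries held identical values. P-values rest on the spread between libraries within groups, pooled over the groups of a fit. This spread was unequal. The median SD of a gene on the log2 scale was 0.285 in CAC and 0.191 in Con at 8 weeks, and 0.196 in CAC and 0.128 in Con at 6 weeks.

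Genes with at least 1 TPM in at least 5 of the 22 libraries were fitted as log2(TPM + 1) with limma 3.58.1 (R 4.3.3), with an intensity trend. The change of the effect and the comparisons of CAC or Con at 8 with 6 weeks used 1 fit of 4 group means, and CAC against Con used the libraries of its own week. Adjusted p-values are Benjamini-Hochberg values over 13162 genes. The procedure was tested on simulated data. The members, the 42 gene lists, the rules and the alternatives were chosen with earlier results of these data known. Named genes were the 12 widest changes in each direction among called genes with a group mean of at least 5 TPM, predicted genes left out (1 among the called), up to 4 members of a list with the smallest adjusted p, and a panel of 25 genes; Ctss and the low called genes were named after their values were seen. Alternatives were a pseudocount of 0.1, no filter, median-of-ratios rescaling, all 62 libraries, group weights, the replicate number as a block, no library with at least 500 TPM of Myh4, and each library left out in turn; a filter within each week and the list counts without each library were added after seeing the data. Of 205 genes looked up in GENCODE M21 (mm10), 204 had a position (not Fam159b). Figures used matplotlib 3.10.9 (Python 3.11.15).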

Additional observations from a re-analysis of the deposited data

Results flagged for a closer look

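The change in the cachectic effect was itself tested, and 16 genes past the threshold had a group mean of at least 5 TPM. The 14 named by rank are given here, without Plekho1 and the predicted gene D630033O11Rik. The effect was higher at 8 than at 6 weeks in Fam102a (0.882) and Tmed5 (0.877). It was lower in Dact2 (-1.768), Cd83 (-1.664), Wnt10b (-1.635), Aif1l (-1.498), Pthlh (-1.438) and Anxa3 (-1.347), and also in Dact1 (-1.242), Ahnak2 (-1.21), Pdlim4 (-1.17), Lgi4 (-1.111), Farp1 (-1.099) and Lat2 (-1.008).

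A library stood far from the others of its group in 16 of 156 combinations of a gene and a group that were screened, where the limit used passes chance gaps in about 5% of groups. Con replicate 2 of week 8 was the highest of its group for Dact2 (43.2 TPM), Wnt10b (19.6 TPM), Aif1l (24.3 TPM), Anxa3 (72.6 TPM) and Dact1 (27.2 TPM), and the lowest for Myh7 (1650 TPM) and Chrna1 (10.4 TPM). Without it, 10 genes were called for a changed effect, 9 of them among the 25, and the change of Dact2 was the narrowest of its leave-one-out values, -1.55. CAC replicate 3 of week 8 was the lowest of its group for Serpina3n (88.7 TPM), Socs3 (15.9 TPM) and Fkbp5 (25.3 TPM); without it 103 genes were called, all 25 among them. CAC replicate 6 of week 8 was high for Myh4 (2040 TPM) and CAC replicate 7 of week 8 for Ppargc1a (53.7 TPM). Con replicate 3 was low for Tmed5 at 8 weeks (9.06 TPM) and high for Dact2 at 6 weeks (2.07 TPM). At 6 weeks, CAC replicate 1 was high for Mt1 (1430 TPM) and CAC replicate 4 for Lgi4 (6.99 TPM).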

How the results depend on the processing

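The 25 genes kept their direction under every alternative run, and their calls did not. Genes higher and lower numbered 2 and 23, against 0 and 0 at a pseudocount of 0.1, 4 and 51 with no filter, 19 and 23 after rescaling, 25 and 135 with all 62 libraries, 13 and 112 with group weights, and 1 and 10 without the Myh4 library. Leaving out 1 library gave 0 to 18 higher and 0 to 161 lower. CAC against Con at 8 weeks gave 2162 higher and 1915 lower with all 62 libraries, and 452 to 1231 higher and 426 to 1054 lower without 1 library. At 6 weeks it gave 1385 higher and 1367 lower after rescaling, 322 lower with all 62 libraries, and 1648 to 5068 higher and 322 to 595 lower without 1 library. CAC at 8 against 6 weeks, with 5068 higher (38.5%) and 1350 lower (10.3%), gave 3436 lower after rescaling, and 4256 to 5420 higher and 1058 to 1534 lower without 1 library. Con at 8 against 6 weeks, with 6263 higher (47.6%) and 721 lower (5.48%), gave 3622 higher and 3881 lower after rescaling, 1220 lower with group weights, and 5578 to 6589 higher and 463 to 981 lower without 1 library. The causes were not tested. Week 6 has no library with 500 TPM of Myh4, so that alternative was not run there.

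Replicate numbers run across the groups, but the labels do not say that they pair animals, and 7 of 30 same-numbered pairs had correlated deviations above 0.1 (range -0.27 to 0.437). With the replicate number as a block, 0 genes were higher and 0 lower for the change, with 1831 at an unadjusted p under 0.05, and CAC against Con at 8 weeks gave 487 higher and 267 lower. The block turned the sign of the change for Ppargc1a (-0.285), Myh4 (-0.37) and Myog (0.088).

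Other reversals were of changes within their error. Rescaling gave 0.114 for Myog and 0.003 for Hba-a1, a gene whose reads may be shared with the near-identical Hba-a2. Without the Myh4 library the change was -0.16 for Myh4 and 0.098 for Myog. Without 1 library the change ran between -0.565 and 0.281 for Mt1, -0.097 and 0.344 for Pdk4, -0.117 and 0.402 for Col1a1, -0.296 and 0.369 for Ppargc1a, -0.288 and 0.098 for Myog, -0.095 and 0.382 for Myh2, -0.621 and 0.058 for Hba-a1, -0.276 and 1.393 for Hba-a2, -0.648 and 0.056 for Serpina3n, -0.16 and 1.222 for Myh4, and -0.626 and 0.054 for Kera. TPM without depth sets no floor for low genes, and their changes depend on the pseudocount.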

Other observations

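Of 32 interferon response and MHC class I genes, 28 had a negative change, against 76.2% of all genes. The median was -0.34, and -0.18 after rescaling. At an unadjusted p under 0.05, 4 of the 32 were lower, against 12.5% of all genes, and limma called 0. Ifitm2, an interferon-induced membrane protein, was 421 to 1130 TPM in CAC and 344 to 610 TPM in Con at 8 weeks, and 398 to 557 TPM in CAC and 139 to 168 TPM in Con at 6 weeks. Its effect was called at 6 weeks (1.69) and missed the threshold at 8 weeks (0.74, adjusted p = 0.0524), and the change was -0.95 (SE 0.28, adjusted p = 0.12). Cxcl13, a chemokine that draws B cells, was 8.85 to 583 TPM in CAC and 1.58 to 4.18 TPM in Con at 8 weeks, and 3.36 to 22 TPM in CAC and 0.0438 to 0.296 TPM in Con at 6 weeks. CAC lay above Con at both weeks, and the change of 2.05 had an SE of 0.90 (adjusted p = 0.311). At a pseudocount of 0.1 it was 0.46 (adjusted p = 0.853).

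Of 27 genes of myostatin, activin and IGF signalling, which set muscle mass, 8 had a lower effect at 8 weeks at an unadjusted p under 0.05. Over all genes this share was 12.5%, and limma called 0 of the 27. Fstl3, a follistatin-like inhibitor of activin and myostatin, was 0.952 to 2.09 TPM in CAC and 1.75 to 3.45 TPM in Con at 8 weeks, and 1.63 to 2.91 TPM in CAC and 1.44 to 2.23 TPM in Con at 6 weeks, with a change of -0.78 (SE 0.20, adjusted p = 0.0844). Tgfb1 was 7.71 to 13.4 TPM in CAC and 12.9 to 19.2 TPM in Con at 8 weeks, and 4.92 to 6.57 TPM in CAC and 5.14 to 6.46 TPM in Con at 6 weeks, with a change of -0.69 (SE 0.18, adjusted p = 0.0954). Slc3a2, the heavy chain of amino acid transporters, had effects of 0.56 at 8 weeks and 1.27 at 6 weeks, both called, and a change of -0.71 (SE 0.21, adjusted p = 0.127). Cdkn1b, the cell cycle inhibitor p27, was 30.8 to 47.6 TPM in CAC and 21.6 to 23.4 TPM in Con at 8 weeks, and 25.4 to 38.6 TPM in CAC and 26 to 29.6 TPM in Con at 6 weeks, a change of 0.48 (SE 0.15, adjusted p = 0.157).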
